A study of Mus musculus with 6 samples.

Results

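RNA from the whole ovary of mice aged 9 days post partum (dpp) was sequenced in 6 libraries, and 148 named gene copies with measurable signal are described here. The copies are the rows of the table whose symbol is a gene symbol followed by -ps, with or without a number, the mouse convention for a related pseudogene. The table held 664 such rows among 47205, of which 271 were at 0 in every library and 245 more were above 0 but below the floor. The 148 members are those with a mean of at least 1 FPKM (fragments per kilobase, corrected for library depth) over the 6 libraries. They were thus chosen by that mean, and their presence above the floor is not a result. In the study, 3 libraries came from cKO mice, in which Srsf1, a serine/arginine-rich splicing factor, had been deleted in granulosa cells, the somatic cells around each oocyte. The other 3 came from WT mice. The sources used here give neither the Cre driver nor the strain. They do not say either whether replicates came from separate animals, so the tests measure no more than the spread of these samples, which may be technical.

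A processed pseudogene arises when the mRNA of a gene is reverse transcribed and the copy is inserted elsewhere in the genome, without the introns and usually without the promoter of its parent. Other pseudogenes arise by duplication of the whole gene, or when a gene decays in place. Genes with abundant mRNA in the germ line, those for ribosomal proteins above all, have left many processed copies in mammalian genomes. A young copy differs from its parent mRNA at few bases, so that a short read can match both.

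The annotation covered several of these kinds. GENCODE M21 gave 91 of the 148 as processed pseudogenes and 8 as transcribed processed pseudogenes. It gave 4 as unprocessed, 9 as transcribed unprocessed and 2 as unitary pseudogenes, 5 as protein coding and 2 as long intergenic RNAs, while 27 were not matched by symbol. The deposited table itself marked 105 as pseudogenes, 28 as transcribed pseudogenes, 12 as protein coding and 3 as long noncoding RNAs. They are therefore called -ps copies below, not processed pseudogenes. A parent, the gene left when -ps and what follows is removed, was in the table for 133 copies, which shared 104 parents. Only 8 copies lay on the chromosome of their parent, and 14 lay on the X chromosome.

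How alike a copy and its parent are decides how firmly a value can be given to either, so stretches of coding sequence are shown for copies whose values are described below. Each pair was chosen because the copy varied at least 4-fold within a group and had a GENCODE M21 sequence to align. Rps18-ps4, Rnps1-ps, Ldhb-ps, Glo1-ps, Ndufs5-ps, Tdg-ps2 and Nsa2-ps1 varied as widely but were not matched there. Their identity to their parents is therefore not known here. Each stretch holds 80 bases around places where copy and parent differ, from the GENCODE M21 transcripts (GRCm38), written 5′ to 3′ on the strand of the gene. Capitals mark the bases that differ between the copy, or either copy, and the parent. Rps2 encodes a protein of the small ribosomal subunit, and 2 of its 3 copies are shown with it.
Rps2-ps13: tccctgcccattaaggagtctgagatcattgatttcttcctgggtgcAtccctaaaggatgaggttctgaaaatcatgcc
Rps2-ps6: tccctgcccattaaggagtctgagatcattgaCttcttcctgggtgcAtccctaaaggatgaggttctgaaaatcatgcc
Rps2: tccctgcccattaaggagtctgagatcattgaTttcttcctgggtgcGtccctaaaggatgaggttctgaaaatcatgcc
Over its whole aligned coding sequence, Rps2-ps13 differed from Rps2 at 7 of 879 bases, and Rps2-ps6 at 7 of 855. Rpl34 encodes a protein of the large ribosomal subunit, and its copy had 2 differences over 351 bases.
Rpl34-ps1: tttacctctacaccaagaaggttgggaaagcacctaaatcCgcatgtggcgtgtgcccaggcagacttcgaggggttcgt
Rpl34: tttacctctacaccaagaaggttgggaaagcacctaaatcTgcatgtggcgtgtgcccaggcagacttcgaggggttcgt
Atp6v0c encodes the ring-forming membrane subunit of the vacuolar proton pump, and its copy had 1 difference over 465 bases, the one shown.
Atp6v0c-ps2: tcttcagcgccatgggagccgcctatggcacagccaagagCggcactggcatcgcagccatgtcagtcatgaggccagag
Atp6v0c: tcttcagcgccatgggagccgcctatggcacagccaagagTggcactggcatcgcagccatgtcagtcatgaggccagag
Rps19, a small-subunit protein gene, had a copy with 5 differences over 435 bases.
Rps19-ps6: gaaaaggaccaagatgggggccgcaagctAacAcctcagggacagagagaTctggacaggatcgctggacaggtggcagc
Rps19: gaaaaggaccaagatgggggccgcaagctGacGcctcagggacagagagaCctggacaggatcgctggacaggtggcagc
Pcna encodes the sliding clamp of DNA replication, and its copy had 6 differences over 781 bases.
Pcna-ps2: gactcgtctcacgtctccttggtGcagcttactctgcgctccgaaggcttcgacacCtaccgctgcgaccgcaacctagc
Pcna: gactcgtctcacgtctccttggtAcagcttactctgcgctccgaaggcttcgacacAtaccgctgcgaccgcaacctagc
Rpl3, a large-subunit protein gene, had a copy with 2 differences over 1209 bases.
Rpl3-ps1: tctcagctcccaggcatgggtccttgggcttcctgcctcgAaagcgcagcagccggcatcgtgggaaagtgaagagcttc
Rpl3: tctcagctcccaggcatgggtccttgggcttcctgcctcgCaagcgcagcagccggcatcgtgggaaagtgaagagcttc
Each stretch thus holds long runs without a difference, where a read from the copy and a read from the parent have the same letters.

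This closeness was general. Of 106 copies aligned to a complete coding sequence of their parent, 99 aligned over at least 80% of it. Among those 99, the median identity over the aligned bases was 99.4%. There, 68 copies were at least 99% identical, and 19 were identical at every aligned base, without gaps. Rps12-ps3 matched all 396 coding bases of Rps12, and Rps16-ps2 matched all 438 of Rps16. The most diverged were Gstm2-ps1, at 85.3% of Gstm2, a glutathione transferase gene, and Rpl26-ps6, at 90.3% of Rpl26. The sources used here do not give the read counter, its treatment of reads with several matches, or the strandedness. Values of a copy and of its parent are therefore uncertain wherever their sequences are this close.

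The libraries held 18.6 to 18.7 M recovered reads in cKO and 16.8 to 18.5 M in WT. Srsf1 stood at 20.3, 26.9 and 21.4 FPKM in the cKO libraries, against 39.9, 49.6 and 46.3 FPKM in the WT libraries. The groups did not overlap, and the log2 fold change was -0.96 with an SE of 0.134 (limma adjusted p = 0.32). Permuting the 6 libraries exactly, on both sides, gave p = 0.1, the least possible for groups of 3. Summed granulosa cell markers were 531, 459 and 458 FPKM in cKO and 652, 661 and 591 FPKM in WT, and all 6 had a log2 fold change below 0. Summed leukocyte markers were 93.8, 41.0 and 53.9 FPKM in cKO and 23.8, 19.7 and 25.9 FPKM in WT, with all 5 above 0. The 3 interferon response genes summed to 158, 10.5 and 21.5 FPKM in cKO and to 3.30, 2.13 and 3.82 FPKM in WT. Summed surface epithelium markers were 164, 206 and 213 FPKM in cKO and 138, 116 and 125 FPKM in WT, with all 4 above 0, and summed endothelium markers were 85.5, 79.9 and 90.1 FPKM in cKO and 74.3, 75.6 and 72.7 FPKM in WT, with all 3 above 0. The oocyte and erythroid lists overlapped between the groups, with 2 of 5 and 3 of 3 markers above 0. No marker of the granulosa, oocyte, leukocyte, surface epithelium, endothelium, erythroid or interferon lists was at 0 in any library, and the part of cell makeup in the values below was not tested. In bulk tissue, fewer cells of a type and less RNA per cell cannot be told apart.

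Most -ps copies were low next to their parents, but the highest ranked with the ribosomal protein genes themselves. The median copy had a mean of 5.52 FPKM, 77 copies reached 5 FPKM, 37 reached 20 FPKM and 10 reached 100 FPKM. The median copy stood at 6.69% of the FPKM of its parent. All 148 were above 0 in every library. The 3 just inside the floor were Rps15a-ps4, with a mean of 1.003 FPKM, Rpl19-ps1 with 1.01 FPKM and Cyp2c53-ps with 1.02 FPKM, while Rpl35a-ps4 with 0.998 FPKM and Tmed10-ps with 0.949 FPKM lay just outside it. The table's gene length was 864 bases for the median copy and 3358 bases for the median of all 14714 rows above the floor.

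All 10 copies with the highest mean descend from ribosomal protein genes. Rps12-ps3 (chromosome 19, 59310722 to 59311216, GRCm39 as in the deposited table) had 316, 393 and 350 FPKM in cKO and 283, 237 and 376 FPKM in WT. Its parent Rps12, a small-subunit protein gene, had 311, 427 and 350 FPKM in cKO and 201, 177 and 352 FPKM in WT. Copy and parent thus stood at similar levels, and the groups overlapped for both. Rpl17-ps10 had 183, 503 and 281 FPKM in cKO and 269, 207 and 304 FPKM in WT, and Rpl17-ps3 had 250, 340 and 301 FPKM in cKO and 227, 173 and 290 FPKM in WT. Both copies averaged more than Rpl17, a large-subunit protein gene, which had 208, 111 and 193 FPKM in cKO and 151, 126 and 195 FPKM in WT. In cKO replicate 2, Rpl17-ps10 was at its highest and Rpl17 at its lowest.

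Rpl21-ps15, on the X chromosome, had 136, 147 and 132 FPKM in cKO and 149, 75.3 and 94.98 FPKM in WT. Rpl21, which encodes a large-subunit protein, had 40.5, 57.8 and 22.7 FPKM in cKO and only 36.5, 6.88 and 17.99 FPKM in WT. The copy was above its parent in every library, and the groups overlapped for both genes. Rps10-ps2 stayed between 254 and 284 FPKM in cKO and between 211 and 284 FPKM in WT, with groups that overlapped. Rps7-ps3 had 114 to 158 FPKM in cKO and 95.1 to 137 FPKM in WT, and Rps16-ps2 had 101 to 112 FPKM in cKO and 77.1 to 108 FPKM in WT. Their parents, Rps10, Rps7 and Rps16, encode small-subunit proteins and were all higher than the copies, with means of 462, 577 and 574 FPKM over the 6 libraries. The other 3 of the 10, Rpl34-ps1, Rps18-ps4 and Rpl3-ps1, varied most between libraries and are described further on.

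**Figure D1:**
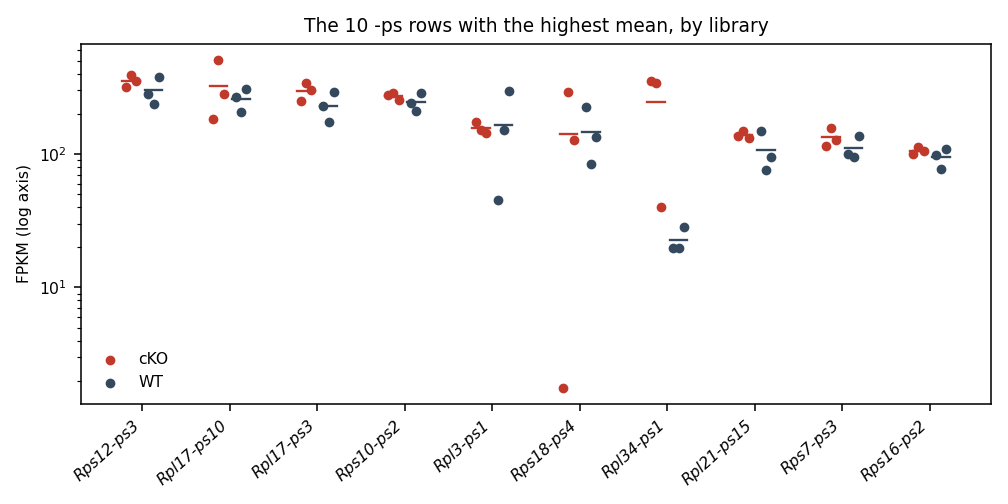
FPKM of the 10 -ps copies with the highest mean, on a log axis, with 1 point per library (cKO left and WT right of each name) and a line at the mean of each group. Rps12-ps3 stays between 237 and 393 FPKM, whereas Rps18-ps4 spans 1.78 to 291 FPKM among cKO libraries and Rpl34-ps1 has 2 cKO libraries at 340 FPKM or more.

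For 10 of the 133 copies with a parent in the table, the copy averaged more than the parent, and for 123 it averaged less. Beside the copies of Rps12, Rpl17 and Rpl21, the 10 included Rpl28-ps1, with 61.4, 86.5 and 46.8 FPKM in cKO and 49.4, 57.7 and 59.2 FPKM in WT, although Rpl28, a large-subunit protein gene, averaged 0.979 FPKM. Rpl28-ps1 matched all 411 coding bases of Rpl28, so the division of reads between copy and parent is uncertain, and a low level of Rpl28 cannot be concluded. The 10 also included Rpl28-ps3, Ndufa12-ps, Hadhb-ps, Gpr137b-ps and Mid1-ps1, and these copies were named after their values were seen. Mid1-ps1 lies on the Y chromosome in the deposited table and had 3.55, 13.8 and 5.04 FPKM in cKO ovaries and 3.02, 5.84 and 10.1 FPKM in WT ovaries. Its parent Mid1, a ubiquitin ligase gene of the X chromosome, averaged 2.98 FPKM. Mid1-ps1 and Mid1 had the same base at 1240 of 1245 aligned positions. Ovaries come from females, which carry no Y chromosome, so the values of Mid1-ps1 cannot be read as signal from the Y.

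Copies of ribosomal protein genes made up 66 of the 148, 37 from the large and 29 from the small subunit. The large-subunit copies summed to a mean of 1447 FPKM and the small-subunit copies to 1301 FPKM, against 566 FPKM for the 63 copies of unclassed genes. There were 3 copies of translation factor genes, 5 of chromatin and nuclear genes, 4 each of chaperone or ubiquitin genes and of mitochondrial genes, 2 of glycolysis genes and 1 of a cytoskeleton gene. Rpl10, Rpl17 and Rps15a had 4 copies each above the floor, and Hmgb1, Pisd, Rpl7a, Rpl9, Rps12 and Rps2 had 3 each.

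Copies of 1 parent could differ widely in level. Rps12-ps4 had 10.2, 7.02 and 5.67 FPKM in cKO and 11.9, 7.63 and 8.97 FPKM in WT, far below Rps12-ps3, and Rps12-ps9 lay between 2.51 and 3.45 FPKM in cKO and between 2.30 and 3.15 FPKM in WT. Rpl17-ps9 and Rpl17-ps8 likewise stood below 4 FPKM in every library, while Rpl17-ps10 and Rpl17-ps3 exceeded 170 FPKM in every library. The 4 copies of Rpl10, a gene of the large subunit, were closer together, between 1.06 and 6.62 FPKM in cKO and between 1.33 and 6.13 FPKM in WT. The 3 copies of Hmgb1, a chromatin protein gene, separated into Hmgb1-ps2, at 22.6 to 30.9 FPKM in cKO and 24.8 to 49.8 FPKM in WT, and the other two, at 1.15 to 5.53 FPKM in cKO and 1.60 to 5.40 FPKM in WT.

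Library by library, the summed FPKM of the 148 copies was 3384, 4898 and 3416 in cKO and 3086, 2751 and 3739 in WT. They held 0.283%, 0.420% and 0.279% of the recovered reads in cKO and 0.266%, 0.258% and 0.335% in WT. cKO replicate 2 was the highest library for 47 copies, and WT replicate 2 was the lowest for 43. The same libraries were the extremes for the sum of the cytoplasmic ribosomal protein genes, at 34352, 38599 and 35205 FPKM in cKO and 34040, 25905 and 36324 FPKM in WT. The groups overlapped in every one of these sums.

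Replicates differed more in -ps copies than in protein-coding genes. The spread of a row is taken here as the wider of its ranges within the cKO group and within the WT group, on log2(FPKM + 1). Its median was 0.658 for the 148 copies, 0.657 for 402 other pseudogene rows, 0.536 for the cytoplasmic ribosomal protein genes and 0.349 for 12717 protein-coding rows, members apart. A range of at least 2, a 4-fold difference in FPKM + 1 between replicates, was found in 15 copies or 10.1%, in 31 other pseudogene rows or 7.71% and in 141 protein-coding rows or 1.11%. The difference from protein-coding rows was present at every level of FPKM. Among rows with a mean of 20 FPKM and over, 6 of 37 copies or 16.2% and 20 of 3495 protein-coding rows or 0.572% had such a range, and among rows of 1 to 5 FPKM the shares were 7.04% and 1.97%. These shares are descriptions of single libraries and carry no test. Equal FPKM is not equal reads: the median gene length was 864 bases for the copies and 3358 bases for all rows tested. A shorter row rests on fewer reads at the same FPKM, and the part of read number in the spread was not tested. In 12 of the 15 copies the cKO and WT libraries overlapped.

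**Figure D2:**
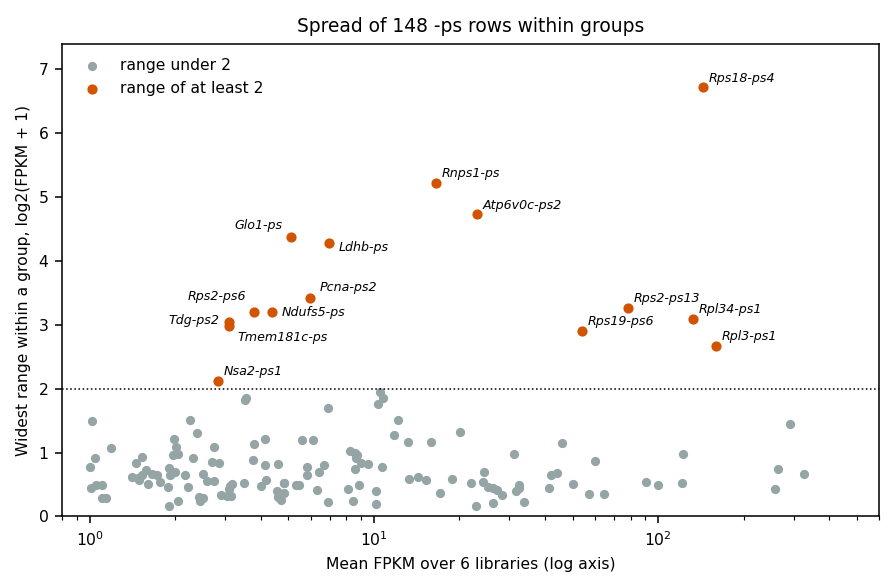
Widest range between replicates of a group, on log2(FPKM + 1), against mean FPKM over 6 libraries on a log axis, with 1 point per -ps copy and a dotted line at a range of 2. The 15 orange, named copies reach a range of 2, and Rps18-ps4 has the widest range.

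The 10 widest ranges belonged to Rps18-ps4, Rnps1-ps, Atp6v0c-ps2, Glo1-ps, Ldhb-ps, Pcna-ps2, Rps2-ps13, Ndufs5-ps, Rps2-ps6 and Rpl34-ps1. Rps18-ps4 (chromosome 13, 97887620 to 97897471) had 1.78, 291 and 128 FPKM in cKO and 223, 84.4 and 134 FPKM in WT. Rps18, a small-subunit protein gene, had 812, 33.4 and 401 FPKM in cKO and 32.2, 317 and 472 FPKM in WT. Where the copy was highest, in cKO replicate 2 and WT replicate 1, the parent was lowest, and the library with almost none of the copy had the most of the parent. The copy took from 0.425% to 94.5% of the reads of the pair. It varied 164-fold and the parent 25.3-fold over the 6 libraries, while their summed reads, scaled for depth, varied 1.74-fold.

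The same exchange was seen for Rnps1-ps (chromosome 6, 7981814 to 7983438), a copy of the gene for an RNA-binding protein of the exon junction complex. It had 0.488, 52.4 and 0.436 FPKM in cKO and 0.679, 22.2 and 22.7 FPKM in WT. Rnps1 had 52.5, 19.9 and 50.1 FPKM in cKO and 49.2, 36.5 and 35.1 FPKM in WT. The copy held 65.1% of the reads of the pair in cKO replicate 2, 30.1% and 31.4% in WT replicates 2 and 3, and under 1% in each of the other 3 libraries. Summed reads of the pair varied 1.15-fold over the libraries, against 120-fold for the copy. Atp6v0c-ps2 (chromosome 6, 37782910 to 37784042) followed the same libraries, with 2.19, 69.0 and 1.64 FPKM in cKO and 2.15, 31.9 and 31.8 FPKM in WT. Atp6v0c had 68.6, 28.5 and 63.4 FPKM in cKO and 60.1, 40.7 and 38.6 FPKM in WT, so that the sum of the pair varied 1.29-fold while the copy varied 42.2-fold. Over the coding sequence, copy and parent differ here at the single base shown above.

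Rps2-ps6 (chromosome 14) was also high in these libraries, with 0.342, 10.4 and 0.235 FPKM in cKO and 0.688, 5.39 and 5.72 FPKM in WT. Tmem181c-ps, a transcribed pseudogene with no parent in the table, had 0.0915, 7.13 and 0.0269 FPKM in cKO and 0.201, 3.62 and 7.52 FPKM in WT. In these 4 copies, Rnps1-ps, Atp6v0c-ps2, Rps2-ps6 and Tmem181c-ps, cKO replicate 2 and WT replicates 2 and 3 were the 3 highest libraries, and the lowest of them stood at least 1 above the next library on log2(FPKM + 1). Of the 148 copies, 13 had those 3 libraries on top, 4 of them with such a gap. The 3 libraries come from both genotypes, so the split runs across the groups and not between them. Rps2-ps13 (chromosome X, 51987436 to 51988388) was by far highest in cKO replicate 2, with WT replicates 3 and 2 next. It had 28.6, 284 and 31.4 FPKM in cKO and 31.6, 40.0 and 55.0 FPKM in WT. The copy held 54.7% of the reads of the pair in cKO replicate 2 and 8.44% and 8.75% in WT replicates 2 and 3. In the other libraries it held 4.36% to 4.91%. Rps2 itself had 598, 224 and 580 FPKM in cKO and 615, 414 and 547 FPKM in WT, lowest in cKO replicate 2. Reads of Rps2 and all its 10 -ps rows together varied 1.42-fold.

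**Figure D3:**
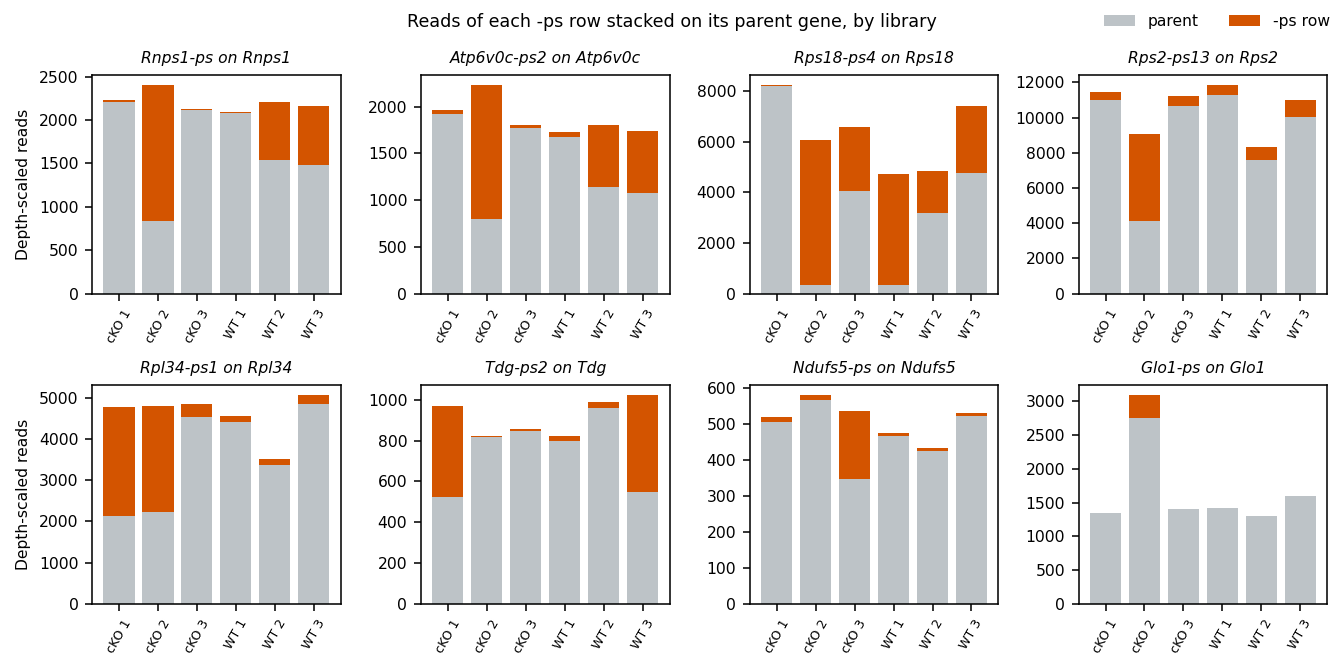
Reads of 8 -ps copies (orange) stacked on those of their parents (grey) in each library, scaled for depth. For Rnps1-ps and Atp6v0c-ps2 the height of the bars stays alike while the orange share is largest in cKO replicate 2 and present in WT replicates 2 and 3, whereas for Glo1-ps the whole bar is taller in cKO replicate 2.

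Glo1-ps (chromosome 2, 35230350 to 35230999), a copy of the glyoxalase gene, did not trade places with its parent. It had 0.407, 28.3 and 0.503 FPKM in cKO and 0.268, 0.508 and 0.583 FPKM in WT. Glo1 had 37.8, 77.3 and 39.2 FPKM in cKO and 39.7, 36.5 and 44.8 FPKM in WT, so copy and parent were both highest in cKO replicate 2, and their sum varied 2.37-fold. Pcna-ps2 (chromosome 19, 9260602 to 9261859) was high in 1 library of each group, with 1.01, 16.01 and 0.736 FPKM in cKO and 0.646, 0.874 and 16.6 FPKM in WT. Pcna stayed between 87.9 and 89.8 FPKM in cKO and between 87.1 and 90.7 FPKM in WT, a 1.04-fold range against the 25.6-fold range of the copy. The 2 libraries with the copy had the 2 lowest levels of Pcna, within that narrow range. In reads scaled for depth, the copy had 370 and 383 there and Pcna 2034 and 2016. In the other libraries Pcna had 2070 to 2100. The sum of the pair varied 1.15-fold and was highest in the 2 libraries with the copy, so most of the copy's reads had no matching fall in Pcna.

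For 6 of the 15 widely varying copies, the parent lies on chromosome 17. Of the 12 copies whose parent lies there, 6 had a range of at least 2, against 8 of 121 copies whose parent lies elsewhere and 1 of 15 with no parent in the table. The 6 were Atp6v0c-ps2, Rnps1-ps, Rps2-ps13, Rps2-ps6, Glo1-ps and Rps18-ps4. Their 5 parents lie between 24382839 and 34174639 on chromosome 17 (GRCm39), in that order. Tmem181c-ps itself lies on chromosome 17, from 6877502 to 6888324. The copies themselves lie on chromosomes 2, 6, 13, 14 and X. The other copies with a parent in this interval had ranges under 2: Rps10-ps2, Rps10-ps1, Rpl10a-ps1, Rab11b-ps2 and Rps2-ps10 had ranges of 0.429, 0.575, 0.698, 1.16 and 1.77 on the log2 scale. Position was examined after the ranges were seen and was given no test.

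The remaining copies with a range of at least 2 are Tdg-ps2, Rps19-ps6, Rpl3-ps1 and Nsa2-ps1, described because they passed that threshold, together with Ldhb-ps, Ndufs5-ps and Rpl34-ps1 below. Tdg-ps2, a copy of the gene for a thymine DNA glycosylase, had 8.42, 0.144 and 0.245 FPKM in cKO and 0.381, 0.475 and 8.90 FPKM in WT. Tdg had 8.01, 12.5 and 12.99 FPKM in cKO and 12.3, 14.8 and 8.44 FPKM in WT, lowest in the same libraries in which the copy was high. The sum of the pair varied 1.25-fold. Rps19-ps6 had 18.5, 93.6 and 83.6 FPKM in cKO and 100.3, 12.5 and 15.1 FPKM in WT, a split of 3 high and 3 low libraries across both groups. Rps19 ranged from 336 to 380 FPKM in cKO and from 254 to 353 FPKM in WT, with no such split. Rpl3-ps1 had 173, 150 and 143 FPKM in cKO and 45.0, 152 and 293 FPKM in WT, and the sum with Rpl3 varied 1.18-fold. Nsa2-ps1 was high only in WT replicate 3, with 1.98, 1.30 and 1.38 FPKM in cKO and 1.89, 1.31 and 9.10 FPKM in WT.

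No -ps copy differed between cKO and WT past the threshold. By limma on log2(FPKM + 1), with Benjamini-Hochberg adjustment over all 14714 rows tested, 0 of 148 copies had an adjusted p under 0.05, against 3 of all rows, or 0.0204%. Of all rows, 0.0068% were called higher and 0.0136% lower, and 0 copies were called in either direction. The smallest adjusted p of a copy was 0.713. At an unadjusted p under 0.05, 12 copies were higher in cKO, where the share of all rows was 3.64%, and 5 were lower, where it was 2.7%. limma-voom on the recovered reads also called 0 copies, and 0% of all rows passed its adjusted threshold. At an unadjusted p under 0.05 it had 8 copies higher, or 5.41%, against 3% of all rows, and 5 lower, or 3.38%, against 3.17%. The cKO libraries were all above the WT libraries for 15 copies, or 10.1%, against 6.37% of all rows, and all below them for 4 copies, or 2.70%, against 5.89%. Of the 10 copies with a mean under 1 FPKM in 1 group, 9 were higher and 1 was lower in cKO. Among copies with both group means of at least 1 FPKM, 13 were apart upward and 3 downward.

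Log2 fold changes of the copies leaned above 0, as did those of their parents. They were above 0 for 97 of 148 copies, or 65.5%, against 49.97% of all rows, with medians of 0.12 for the copies and -0.00 for all rows. Rescaling each library to a common FPKM total lowered the median of all rows by 0.06. It left 89 of 148 copies above 0, where 36.5% of all rows were. Of the 103 parents tested, 86 were above 0 with a median of 0.12, and of 81 ribosomal protein genes tested 77 were above 0 with a median of 0.16. limma called 0 parents and 0 ribosomal protein genes. The groups were apart upward for 8 of the 103 parents and for 0 of the 81 ribosomal protein genes, against 6.37% of all rows. They were apart downward for 0 parents and 0 ribosomal protein genes, against 5.89% of all rows. By class, 30 of 37 large-subunit copies and 20 of 29 small-subunit copies were above 0, against 33 of 63 unclassed copies. Without WT replicate 2, the lowest library for 43 copies and for the sum of ribosomal protein genes, 86 of 149 copies were above 0, with a median of 0.06. Without WT replicate 1 these were also 86 of 149, and 0.09, and without WT replicate 3 they were 104 of 146 and 0.16. The shares of all rows above 0 were 48.8%, 49.8% and 50.4% in that order. Without cKO replicates 1, 2 and 3, the copies above 0 were 92 of 147, 87 of 146 and 97 of 148. All rows then stood at 49.5%, 52.3% and 49.8%.

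Rpl34-ps1 (chromosome 6, 71101573 to 71101985) had the largest difference among copies whose groups did not overlap. It had 350, 340 and 40.2 FPKM in cKO and 19.7, 19.7 and 28.2 FPKM in WT. cKO replicates 1 and 2 stood far above the other 4 libraries, and cKO replicate 3 was close to WT. The log2 fold change was 2.88 (SE 0.787, limma adjusted p = 0.74). Without cKO replicate 3 it was 3.90, and the limma adjusted p was then 0.00944. Rpl34 had 94.9, 99.1 and 203 FPKM in cKO and 197, 150 and 217 FPKM in WT, lowest in the libraries where the copy was high. The sum of the pair varied 1.44-fold, and the copy held 55.5% and 53.7% of it in cKO replicates 1 and 2 and 3.26% to 6.29% in the other 4 libraries.

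Ldhb-ps and Ndufs5-ps came next by size, each through 1 library. Ldhb-ps, a copy of a lactate dehydrogenase gene, had 1.65, 36.7 and 0.933 FPKM in cKO and 0.768, 0.685 and 0.927 FPKM in WT (log2 fold change 1.69, SE 1.03, limma adjusted p = 0.811). Ndufs5-ps, a copy of a gene for a subunit of respiratory complex I, had 1.59, 1.35 and 20.7 FPKM in cKO and 0.929, 0.770 and 0.866 FPKM in WT (log2 fold change 1.46, SE 0.800, limma adjusted p = 0.801). For both copies the other 2 cKO libraries lay within 1 FPKM of the highest WT library. Their WT means were 0.793 and 0.855 FPKM, so both copies passed the floor only through the cKO libraries, where they are high. Ndufs5 was lowest, at 37.0 FPKM, in the cKO library where its copy was high, against 45.4 to 55.7 FPKM in WT. Ldhb had 849, 727 and 769 FPKM in cKO, and was also lowest of that group in the library with the high copy. That level lay within the 710 to 873 FPKM of WT.

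For the next 7 copies by size, all cKO libraries contributed and the differences were smaller. Rpl7a-ps5 had 14.4, 17.96 and 22.5 FPKM in cKO and 12.2, 10.1 and 8.70 FPKM in WT, a log2 fold change of 0.75 with an SE of 0.182 (limma adjusted p = 0.713). Its parent Rpl7a, a large-subunit protein gene, overlapped, with 106, 98.7 and 74.4 FPKM in cKO and 67.7, 75.1 and 137 FPKM in WT. The other copies of Rpl7a, Rpl7a-ps11 and Rpl7a-ps3, overlapped too. Tma7-ps had 6.67, 5.66 and 6.87 FPKM in cKO and 3.91, 3.47 and 5.29 FPKM in WT, and Rpl38-ps2 had 31.4, 43.0 and 39.0 FPKM in cKO and 24.2, 27.1 and 29.2 FPKM in WT. Nudc-ps1, a copy of a dynein regulator gene, had 39.8, 48.6 and 64.1 FPKM in cKO and 39.2, 38.7 and 33.3 FPKM in WT, the lowest cKO library lying just above the highest of WT. For Tma7-ps, Rpl38-ps2, Nudc-ps1, Rpl9-ps6, Rpl36-ps12 and Rps13-ps1, log2 fold changes lay between 0.30 and 0.51, with limma adjusted p between 0.74 and 0.773. The parents of all 7 overlapped between the groups. The 5 further copies that were apart upward, Rpsa-ps10, Rpl19-ps11, Vdac3-ps1, Rpl15-ps3 and Oaz2-ps, differed by 0.15 to 0.30 on the log2 scale.

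The cKO libraries were all below the WT libraries for 4 copies, with means of 1.14 to 6.33 FPKM over the 6 libraries. Rpl13-ps6 had 0.570, 0.912 and 0.588 FPKM in cKO and 1.49, 1.41 and 1.90 FPKM in WT. Its log2 fold change was -0.62 with an SE of 0.163 (limma adjusted p = 0.736). Its cKO mean was 0.690 FPKM, so it passed the floor only through the WT libraries, where it is high. Rpl26-ps6 had 1.34, 2.13 and 2.44 FPKM in cKO and 3.62, 3.11 and 3.80 FPKM in WT, with the same log2 fold change of -0.62. Its parent Rpl26, a large-subunit protein gene, ran the other way in part, with 635, 802 and 762 FPKM in cKO and 676, 266 and 400.0 FPKM in WT, and the groups overlapped. Gstm2-ps1, the most diverged of the aligned copies, had 2.96, 2.17 and 2.47 FPKM in cKO and 3.61, 3.52 and 4.14 FPKM in WT. Ppp4r1l-ps, which has no parent in the table, had 5.04, 6.46 and 4.59 FPKM in cKO and 6.81, 8.24 and 6.85 FPKM in WT, a log2 fold change of -0.39 with an SE of 0.139 (limma adjusted p = 0.768). Values for Rpl13, Rpl26 and Gstm2 all overlapped between the groups. A copy and its parent had log2 fold changes of the same sign in 81 pairs and of opposite sign in 50. Copies and parents both leaned above 0, at 97 of 148 and 86 of 103, so many pairs would share a sign without any link. Whether copies follow their parents was not tested.

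**Figure D4:**
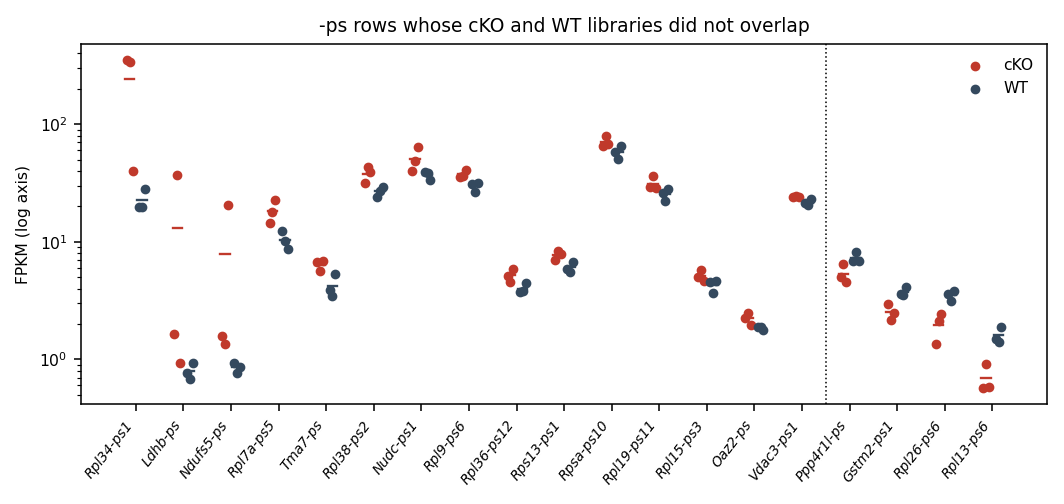
FPKM, on a log axis, of the 19 -ps copies whose cKO libraries (red, left) and WT libraries (blue, right) did not overlap, with a line at each group mean and a dotted line between the 15 higher and the 4 lower in cKO. In Ldhb-ps and Ndufs5-ps a single cKO library lies far above the others, and in Rpl34-ps1 a pair of them does.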

How the data were processed

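FPKM values per gene, in a single table for the 6 libraries, were deposited by the authors. The submitters' processing notes name HISAT2 2.0.5, and as builds both mm10 and GRCm39. The chromosome accessions of the table are those of GRCm39, and positions are the table's own. The sources used here do not give read counter, annotation release or strandedness. The labels gave each library its group and replicate number. FPKM times gene length gave whole reads in each library, for 100% of values within 0.01, and these reads were divided by the library's scaling for sums of copy and parent.

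Rows with a mean of at least 1 FPKM were tested, 14714 of 47205, on log2(FPKM + 1), which understates the change of low rows. limma 3.58.1 in R 4.3.3 (lmFit, eBayes with a trend, two-sided) compared cKO with WT, with Benjamini-Hochberg adjustment over all rows and a threshold of 0.05. Standard errors (SE) are moderated. The procedure was tested on simulated data. Srsf1 alone was also tested by exact permutation. Sequences were aligned locally with Biopython 1.88, and GENCODE M21 gave types for 121 copies and sequences.

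Members, lists and tests were chosen with earlier results of these data known. Named are Srsf1, copies past the threshold, in either direction up to 10 copies of largest fold change with groups that did not overlap, the 10 highest by mean, the 10 widest in range, 3 rows on either side of the floor, and their parents. Of these, 1 row just outside the floor is not reported here. Others were named after their values were seen. The alternatives were pseudocounts of 0.1 and 0.5, floors of 0.1, 5 and none, a common total, quantile normalization, a prior without trend or a robust one, a replicate block, limma-voom, and each library left out.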

Additional observations from a re-analysis of the deposited data

How the results depend on the processing

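No direction among the named log2 fold changes reversed under any alternative run, and 247 values kept their side of the threshold. The 1 exception was Rpl34-ps1 without cKO replicate 3, and leaving out each library in turn thus gave 0 to 1 copies called higher and 0 called lower. Over all rows, the 1 gene higher in cKO became 0 with a pseudocount of 0.1 or 0.5, a floor of 5 FPKM, no floor, quantile normalization, the replicate block or limma-voom, and the 2 lower became 0 with no floor, the replicate block or limma-voom. With a library left out, the numbers were 0 to 1 in either direction. Copies apart upward numbered 15, or 25 of 393 with no floor, where 4.82% of all rows were, and 19 to 34 when a library was left out, where 8.62% to 13.4% of all rows were. Copies apart downward numbered 4, or 1 with a floor of 5 FPKM and 9 with no floor, where 5.07% and 5.10% of all rows were, and 6 to 13 when a library was left out, where 8.49% to 13.4% were. The cause of these shifts was not tested beyond the change in rows or libraries that each alternative makes.

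Copies with a range of at least 2 numbered 15, or 22 with a pseudocount of 0.1, and 11 to 14 when a library was left out. The fold range of the ratio of copy to parent over the libraries is by construction the same in recovered reads as in FPKM, so it is no check. The ratios themselves differ with gene length. Deviations of cKO and WT libraries with the same replicate number correlated at 0.18, -0.08 and -0.06, and those with different numbers at -0.23 to 0.23. No pairing by number was thus seen, but so few libraries cannot exclude one. With the number as a block, 8 copies were higher and 5 lower at an unadjusted limma p under 0.05, or 5.41% and 3.38%, against 3.32% and 2.69% of all rows. The planned edgeR fit was not run, and limma-voom took its place after the data were seen. With 3 libraries a group and spreads this wide, a difference between genotypes in a single copy was hard to detect, and a low number of calls does not mean that few copies changed. The low copies rest on as few as 1 read in a library.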

Other observations

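Several -ps copies outside the ribosomal protein families are described here, and all values in this section were chosen after they were seen. Eif4a-ps4, named for a helicase of translation initiation, had 57.7, 58.5 and 60.9 FPKM in cKO and 48.0, 55.6 and 61.8 FPKM in WT. Gpx4-ps2 lies on chromosome 10 like its parent Gpx4, which encodes a peroxidase that protects membrane lipids. The copy had 34.6, 29.1 and 30.4 FPKM in cKO and 30.8, 27.8 and 36.8 FPKM in WT, and Gpx4 averaged 85.4 FPKM over the 6 libraries. Eef1a1-ps1 stood at only 2.39, 2.54 and 2.87 FPKM in cKO and 2.03, 2.30 and 2.57 FPKM in WT, although its parent Eef1a1, the elongation factor that brings tRNAs to the ribosome, averaged 4423 FPKM. Nlrp5-ps is a transcribed unprocessed pseudogene on the chromosome of Nlrp5, a gene of oocytes that is needed by the early embryo. It had 1.07, 1.85 and 1.91 FPKM in cKO and 1.14, 2.39 and 1.55 FPKM in WT, against a mean of 299 FPKM for Nlrp5. The groups overlapped for each of these copies.

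A few copies had a split between libraries with a range under 2 on log2(FPKM + 1), although Rps26-ps1 and Actr3-ps passed 4-fold in FPKM. Rps26-ps1 had 4.61, 10.7 and 19.4 FPKM in cKO and 19.3, 4.79 and 5.59 FPKM in WT. Actr3-ps, a copy of a gene for a subunit of the actin-nucleating Arp2/3 complex, had 2.23, 1.21 and 1.93 FPKM in cKO and 1.60, 5.94 and 8.23 FPKM in WT. Ubb-ps, a copy of a ubiquitin gene, had 38.4, 27.8 and 16.8 FPKM in cKO and 36.3, 79.1 and 76.8 FPKM in WT. Its 2 highest libraries, WT replicates 2 and 3, were those with the lowest levels of Ubb, at 320 and 361 FPKM, against 428 FPKM in WT replicate 1 and 447 to 514 FPKM in cKO. Tmem181b-ps, also on chromosome 17, had 5.89, 11.96 and 5.97 FPKM in cKO and 6.21, 11.9 and 9.997 FPKM in WT, with the 3 libraries on top that were on top for Tmem181c-ps.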
